A study of Saccharomyces cerevisiae with 8 samples.

Results

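Peroxisome biogenesis genes were compared between a pressure-sensitive budding yeast mutant, strain a924E1, and its parent, strain KA31a. The members were the array's genes named PEX and a number, the genes CTA1, ANT1, OAF1, PIP2, NPY1, PNC1 and FAT1, and 5 genes that the scanner files list by systematic name only (YHR150W, YDR479C, YLR324W, YGR004W and YBR168W, in RefSeq PEX28 to PEX32). This gave 32 genes of 6256 on the array, each read by 1 probe in 2 spots. All 32 were found in the RefSeq R64 gene table under the same systematic name. PCS60 is also in the rule for members, but the scanner files carry its gene, YBR222C, under the older name FAT2, so it is given below beside the members and not counted with them. Each strain was represented by 4 samples with 1 array each, the mutant by arrays 1, 3, 5 and 7 and the parent by arrays 2, 4, 6 and 8. The labels do not say that the samples came from separate cultures, so p-values measure the spread between these samples, which may be technical. Both strains had been kept for 48 h at 30 °C in YPD, a rich medium with glucose, and the labels name no pressure treatment and do not say which gene is mutated in a924E1. How much glucose was left after 48 h cannot be read from these arrays. The arrays read RNA of whole cultures, so fewer cells with a transcript and less transcript per cell cannot be told apart.

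Peroxisomes are the only site of fatty acid beta-oxidation in this yeast, and their catalase destroys the hydrogen peroxide which that pathway makes. Proteins of the peroxisome matrix are made in the cytosol and carried in, folded, by cycling receptors that recognise the targeting signals PTS1 and PTS2. The receptors dock at the membrane, release their cargo, are ubiquitinated and are pulled back out; other PEX proteins (peroxins) insert membrane proteins or set the number and size of the organelles. Many of these genes are held low by glucose and induced by oleate through the transcription factors Oaf1 and Pip2.

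Peroxisome biogenesis genes differed between the strains in both directions and by small amounts. Of the 32 genes, 4 rose in the mutant (PEX8, PEX17, PEX29 and PEX32), 3 fell (PEX13, PEX21 and PEX22) and 25 did not pass the test, an adjusted p under 0.05 in limma with Benjamini-Hochberg adjustment over all 6256 genes. These 7 genes are 21.9% of the members, and 26.6% of all genes passed (12.7% higher and 14.0% lower in the mutant), so the members' share lay near, and below, that of all genes. The members were brighter than all genes, with a median normalised log2 level of 7.54 against 6.84. Among genes above background on every array of at least 1 strain, 1 of 12 members passed (8.33%), against 48.0% of all such genes. The comparison therefore depends on which genes are counted. The median log2 difference, mutant minus parent, was -0.07 over the members, with quartiles of -0.22 and 0.26, and 0.05 over all genes, with quartiles of -0.18 and 0.24. The largest called difference was the 1.68-fold fall of PEX13, whereas 3.88% of all genes passed with at least a 2-fold difference. The 95% interval of the difference lay within 2-fold in either direction for 29 of the 32 members (90.6%) and for 88.5% of all genes. It reached past 2-fold for PEX13, PEX29 and PEX30. The arrays of the strains did not overlap for 5 members (15.6%), 4 higher and 1 lower in the mutant, and for 29.9% of all genes (15.2% higher and 14.7% lower).

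**Figure D1:**
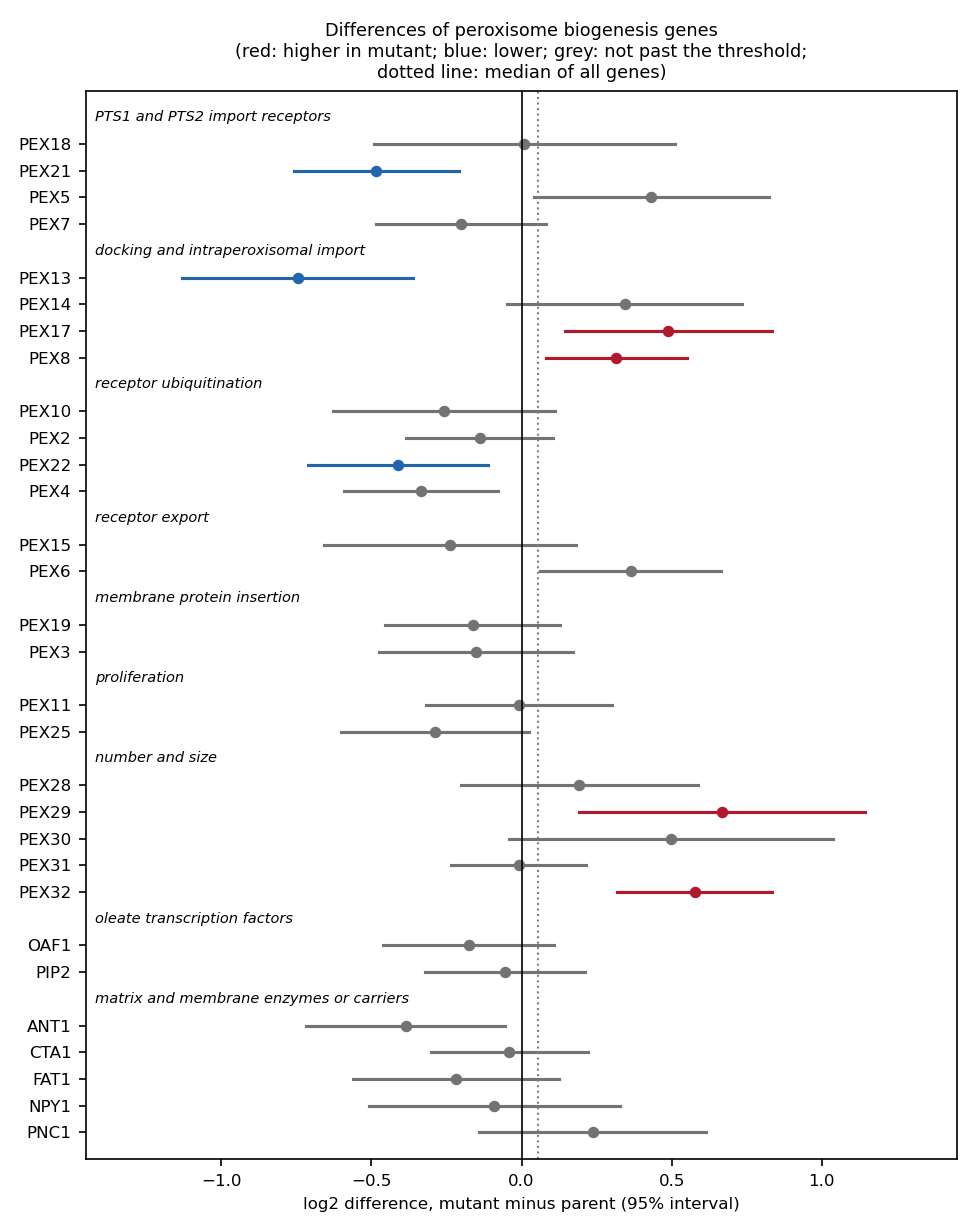
Log2 difference, mutant minus parent, of the members reported singly (dots) with its 95% interval from limma (bars), grouped by role; red marks genes higher in the mutant, blue genes lower, grey genes that did not pass, and the dotted line the median of all genes at 0.05. Red and blue dots stand on both sides of 0, and the difference of the docking protein gene PEX13, at -0.75, lies opposite to those of PEX17, at 0.49, and PEX8, at 0.32.

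The arrays differed widely in brightness. Median signal over local background, in intensity units, was 5 to 112 in the mutant and 15 to 182 in the parent. Mutants 5 and 7 and parent 8 were scanned at a photomultiplier gain of 700 and the others at 600, so a value within gain 700 rests on 1 parent array, assumed to vary as the mutant arrays do. Of the 32 members, 30, 30, 14 and 4 were above background (both spots at a signal-to-noise ratio of 3 or more) on mutant arrays 1, 3, 5 and 7, and 29, 32, 29 and 12 on parent arrays 2, 4, 6 and 8. PEX31 and FAT1 were above background on no mutant array, and PEX29, PEX30 and CTA1 on all 8 arrays. Of the last 3 members PEX29 passed, and of all 582 genes above background on all 8 arrays 51.5% passed (34.7% higher and 16.8% lower in the mutant). With the fit limited to genes above background on every array of at least 1 strain, 1 of 12 members passed (8.33%), PEX29, against 738 of 1536 genes (48.0%). Most of these genes entered the fit through the parent arrays, as given above. The slides carried every mutant array in column 1 and every parent array in column 2, and the strain cannot be told apart from this position. Mutants 1 and 3 correlated at Pearson's r = 0.996 across genes, higher than the other mutant pairs (0.932 to 0.965), and whether they share RNA was not tested. The fit with close pairs averaged, used below, joined mutants 1 and 3, and also parents 6 and 8. Parents 6 and 8 correlated at 0.9845 across genes and at 0.9835 over genes above background on all 8 arrays. For parents 4 and 6, which were not averaged, these values were 0.9886 and 0.969. Levels below are background-corrected, quantile-normalised log2 intensities, in which an offset of 50 units pulls dim genes towards no difference. The calls depend on this normalization. With each array scaled to its median or its 75th percentile instead, none of the 32 genes passed in limma (3 and 2 genes at an unadjusted p under 0.05), while the 7 differences kept their signs.

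The receptors and co-receptors of import gave 1 call among 4 genes. PEX21 (YGR239C), a co-receptor that helps the PTS2 receptor carry its cargo, read 6.47, 6.57, 6.38 and 6.1 on mutant arrays 1, 3, 5 and 7, against 7.02, 6.92, 6.83 and 6.69 on parent arrays 2, 4, 6 and 8. Every mutant value lay below every parent value, and the gene was above background on 2 mutant and 3 parent arrays. PEX21 fell by 0.48 ± 0.13 on the log2 scale (SE over 4 arrays of each strain, limma adjusted p = 0.0145), or 1.40-fold. The difference was -0.40 among the gain 600 arrays, -0.46 among the gain 700 arrays and -0.42 with gain as a block (limma adjusted p = 0.0142). With a smaller offset of 16 it was -0.73, and with 75th percentile scaling -0.32.

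PEX18, which serves the same receptor as PEX21 does, read 8.51, 8.40, 7.81 and 8.32 on the mutant arrays, against 7.62, 8.70, 8.57 and 8.12 on the parent arrays. The strains overlapped, and the difference of 0.01 had a 95% interval of -0.49 to 0.51. The PTS2 receptor gene PEX7 differed by -0.20 (95% interval -0.48 to 0.08). PEX5, the PTS1 receptor gene, averaged 8.32 ± 0.37 in the mutant and 7.89 ± 0.22 in the parent (SD, n = 4 each), a difference of 0.43 that did not pass (limma adjusted p = 0.0994). Without mutant 5, the lowest mutant array, it was 0.59 and passed (limma adjusted p = 0.0185). Leaving out the array that lies most against a difference enlarges that difference by construction. Of 22 refits with other processing or with fewer arrays or genes, PEX5 passed in 2. PEX9, a second PTS1 receptor gene that the files list by systematic name and that is outside the members, cleared background on no mutant array, so no difference is given.

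Of the 4 genes of docking and of import inside the peroxisome, PEX13 fell, PEX17 and PEX8 rose and PEX14 did not pass. PEX13 (YLR191W), a membrane protein of the docking site, had raw signals of 137.5, 147.5, 16.5 and 12.5 units over background on mutant arrays 1, 3, 5 and 7, against 642, 558, 114 and 55 on parent arrays 2, 4, 6 and 8. Median signals over all spots were 82, 112, 16 and 5 units on these mutant arrays and 163, 182, 54 and 15 on these parent arrays. Raw signals alone therefore do not compare the strains. PEX13 was above background on 2 mutant and 3 parent arrays. After normalization PEX13 read 7.21, 7.03, 6.88 and 7.51 in the mutant, against 8.24, 7.96, 7.47 and 7.95 in the parent. The strains met only at mutant 7, the highest mutant value, which lay just above parent 6. The log2 level of PEX13 fell by 0.75 ± 0.18 (SE, n = 4 and 4, limma adjusted p = 0.00879). The difference was -0.77 within gain 600 (limma adjusted p = 0.0598), -0.76 within gain 700 and -0.76 in a fit with gain as a block (limma adjusted p = 0.017).

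PEX17 (YNL214W), which belongs to the same docking complex, read 7.07, 7.30, 7.10 and 6.74 on the mutant arrays, against 6.17, 6.62, 6.74 and 6.74 on the parent arrays. Mutant 7, parent 6 and parent 8 stood at the same level, and the other mutant arrays lay above every parent array. PEX17 was above background on 2 arrays of each strain. Its rise was 0.49 ± 0.16 (SE, n = 4 and 4, limma adjusted p = 0.0391), with 0.68 within gain 600, 0.18 within gain 700 and 0.50 in a fit with gain as a block (limma adjusted p = 0.0564). PEX8 (YGR077C), which works inside the peroxisome and links docking to ubiquitination, read 7.27, 7.39, 7.53 and 7.18 in the mutant, against 6.99, 7.03, 7.12 and 6.97 in the parent. PEX8 was above background on 3 arrays of each strain. The strains did not overlap, and the rise was small, at 0.32 ± 0.11 (SE, n = 4 and 4, limma adjusted p = 0.0485). Within gain 600 it was 0.28, within gain 700 0.39, and 0.32 in a fit blocked on gain (limma adjusted p = 0.0529). PEX14, the docking protein that receives the loaded receptors, averaged 8.08 ± 0.12 in the mutant and 7.74 ± 0.41 in the parent (SD, n = 4 each). It differed by 0.34 and did not pass (limma adjusted p = 0.190), and parent 2, at 7.13, stood below the other parent arrays, at 7.92 to 7.98.

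Of the genes of receptor ubiquitination given here, PEX22 passed and PEX2, PEX4 and PEX10 did not, and all 4 read lower in the mutant. PEX22 (YAL055W), the membrane anchor of the ubiquitin-conjugating enzyme Pex4, read 7.67, 7.55, 8.03 and 7.49 on the mutant arrays, against 8.19, 8.04, 8.25 and 7.90 on the parent arrays. Only mutant 5 reached into the parent's range, and the gene was above background on 2 mutant and 3 parent arrays. PEX22 fell by 0.41 ± 0.14 (SE, n = 4 and 4, limma adjusted p = 0.0446), with -0.55 within gain 600, -0.14 within gain 700 and -0.40 in a fit with gain as a block (limma adjusted p = 0.0689). PEX4 itself read 6.57, 6.61, 6.80 and 6.43 in the mutant, against 7.14, 6.95, 6.87 and 6.80 in the parent, and its difference of -0.34 missed the threshold (limma adjusted p = 0.0539). It passed without mutant 5, at -0.40 (limma adjusted p = 0.0229), and within gain 600, at -0.39 (limma adjusted p = 0.0322). In all, PEX4 passed in 5 of 22 refits. The ubiquitin ligase genes PEX2 and PEX10 differed by -0.14 and -0.26, and the 95% interval of each included 0.

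In receptor export, neither PEX6 nor PEX15 passed in limma (PEX6 at an unadjusted p of 0.0225). PEX6, an ATPase that extracts used receptors, read 7.50, 7.44, 7.17 and 7.17 on the mutant arrays, against 7.19, 7.0, 7.01 and 6.63 on the parent arrays, so that only parent 2 reached the mutant's range. Its difference of 0.36 had a limma adjusted p of 0.0745, which was 0.0062 with gain as a block (0.45), 0.0321 with slide row as a block and 0.0457 without parent 2 (0.44). In all, PEX6 passed in 7 of 22 refits. PEX15, the membrane anchor of that ATPase, differed by -0.24 (limma adjusted p = 0.407). Parent 2 was its low array at 8.08, and without it the difference was -0.46 (limma adjusted p = 0.0172). That was the 1 refit of 23 in which PEX15 passed.

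The genes for inserting membrane proteins, PEX3 and PEX19, differed by -0.15 (95% interval -0.47 to 0.17) and -0.16 (-0.46 to 0.13). In proliferation, PEX11, the main division factor of peroxisomes in this yeast, read 8.43, 8.62, 9.02 and 8.60 on the mutant arrays, against 8.62, 8.49, 8.90 and 8.71 on the parent arrays. The strains covered the same range, and the difference of -0.01 had a 95% interval of -0.32 to 0.30. PEX25, a related proliferation gene, read 8.51, 8.56, 8.07 and 8.44 in the mutant, against 8.91, 8.82, 8.47 and 8.53 in the parent, and differed by -0.29 (limma adjusted p = 0.172). PEX27, of the same family but listed by systematic name and outside the members, read 6.52, 6.49, 6.27 and 6.41 in the mutant, against 6.20, 6.11, 5.96 and 6.43 in the parent, and differed by 0.25 (limma adjusted p = 0.162).

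Among the 5 genes that set peroxisome number and size, 2 rose and 3 did not pass. These membrane proteins, several of them in the endoplasmic reticulum, act on the number or the size of peroxisomes. PEX32 (YBR168W) read 7.38, 7.38, 7.35 and 7.22 on the mutant arrays, against 6.47, 6.92, 6.88 and 6.75 on the parent arrays. The mutant arrays lay close together and above every parent array, but the gene was above background on only 2 mutant and 3 parent arrays. Its raw signals were 168, 233, 34 and 8 units over background on the mutant arrays, against 93.5, 198.5, 55.5 and 15.5 on the parent arrays. These raw signals are not adjusted for array brightness. PEX32 rose by 0.58 ± 0.12 (SE, n = 4 and 4, limma adjusted p = 0.00411), or 1.49-fold, with 0.62 within gain 600, 0.53 within gain 700 and 0.59 in a fit with gain as a block (limma adjusted p = 0.00658). PEX29 (YDR479C) read 8.69, 8.68, 9.78 and 8.87 in the mutant, against 8.37, 8.14, 8.48 and 8.36 in the parent, and was above background on all 8 arrays. The strains did not overlap, but mutant 5 stood well above the other mutant arrays. The rise of PEX29 was 0.67 ± 0.22 (SE, n = 4 and 4, limma adjusted p = 0.0406). It was 0.41 without mutant 5 (limma adjusted p = 0.0222), 0.36 within gain 600 (limma adjusted p = 0.0669), 0.97 within gain 700 and 0.57 in a fit with gain as a block (limma adjusted p = 0.074).

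PEX30, a relative of PEX32, also had its highest value on mutant 5, reading 8.99, 9.09, 10.16 and 9.31 in the mutant, against 8.89, 8.42, 9.08 and 9.18 in the parent. Its difference of 0.50 did not pass (limma adjusted p = 0.171). PEX28, a relative of PEX29, read 6.55, 6.55, 6.40 and 7.03 on the mutant arrays, against 6.27, 6.27, 6.28 and 6.94 on the parent arrays. The dim arrays mutant 7 and parent 8 gave its highest values, and the difference was 0.19 (limma adjusted p = 0.478). It was 0.27 within gain 600 (limma adjusted p = 0.0173), the 1 refit of 22 in which PEX28 passed, and -0.22 within gain 700. PEX31 was above background on parent 4 alone, reading 6.1, 6.05, 6.22 and 6.22 in the mutant, against 6.01, 6.16, 6.16 and 6.31 in the parent, so no fold is given.

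**Figure D2:**
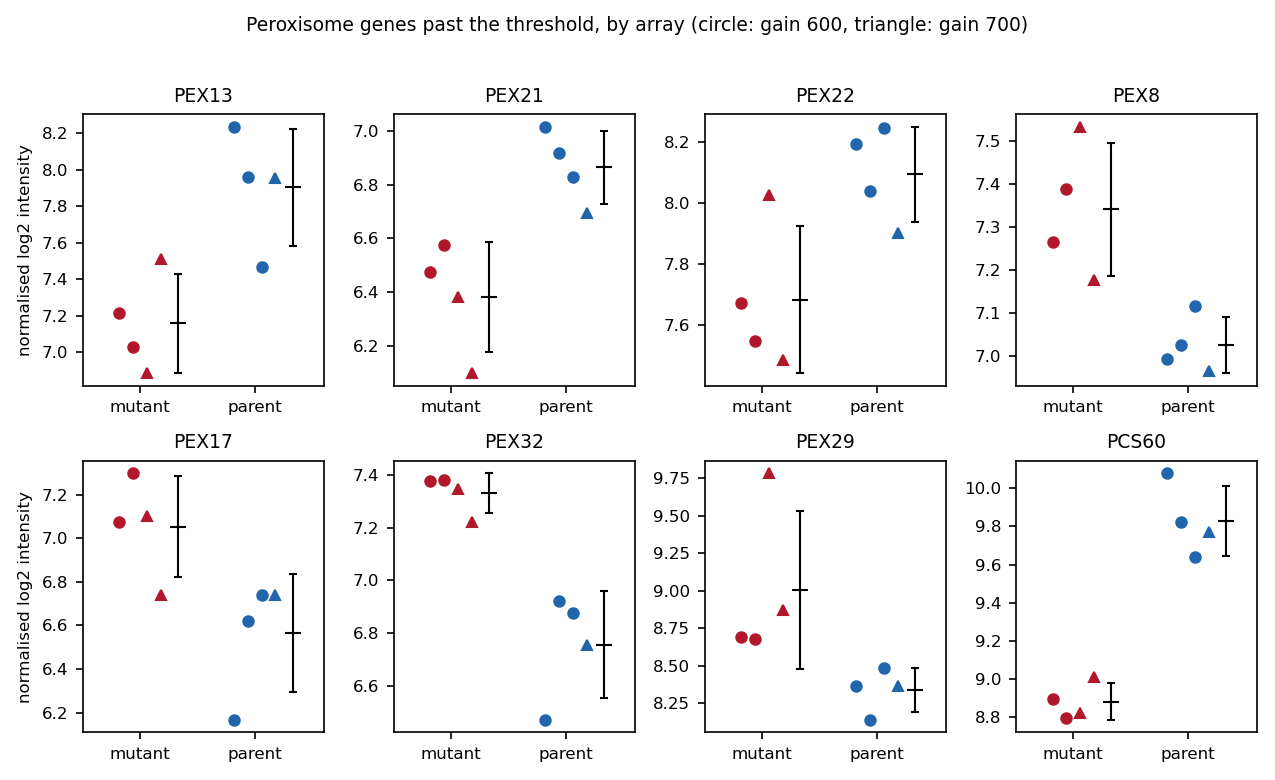
Normalised log2 intensity of the 7 members that passed and of PCS60 on each array, mutant at left and parent at right of each panel, with its own vertical axis per panel; circles are arrays of gain 600, triangles arrays of gain 700, and the bars give the mean and SD of 4 arrays. PEX21, PEX8, PEX32, PEX29 and PCS60 show no overlap of the strains, PEX17 touches at 6.74, and PEX13 and PEX22 overlap at 1 mutant array each.

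The transcription factors of the oleate response did not pass. OAF1 read 7.34, 7.60, 7.01 and 7.16 on the mutant arrays, against 7.43, 7.37, 7.50 and 7.52 on the parent arrays, a difference of -0.18 (95% interval -0.46 to 0.11). PIP2 read 7.10, 7.17, 6.75 and 7.18 in the mutant, against 7.11, 6.98, 7.24 and 7.08 in the parent, a difference of -0.05 (95% interval -0.32 to 0.21). Mutant 5 gave the lowest value of both genes.

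Among the enzymes and carriers, none of the 5 members passed in limma (1 at an unadjusted p under 0.05). CTA1, the peroxisomal catalase, read 10.28, 10.32, 9.97 and 10.19 on the mutant arrays, against 10.13, 10.46, 10.11 and 10.23 on the parent arrays. It was above background on all 8 arrays, and the difference of -0.04 had a 95% interval of -0.30 to 0.22. ANT1, the carrier that brings ATP into the peroxisome, averaged 6.60 ± 0.19 in the mutant and 6.99 ± 0.28 in the parent (SD, n = 4 each) and differed by -0.39 (limma adjusted p = 0.0842). Without parent 2, whose value of 6.57 was the lowest of the parent, ANT1 passed at -0.52 (limma adjusted p = 0.0131). In all, ANT1 passed in 2 of 22 refits. PNC1, a nicotinamidase found partly in peroxisomes, differed by 0.24 (95% interval -0.14 to 0.61), and NPY1, an NADH pyrophosphatase, by -0.09 (-0.51 to 0.33). FAT1, which activates and takes up very long chain fatty acids, was above background on 1 parent array and on no mutant array, so no fold is given.

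PCS60 (YBR222C), the peroxisomal oxalyl-CoA synthetase listed in the files as FAT2, differed more than any of the 32 members. It read 8.89, 8.80, 8.82 and 9.01 on mutant arrays 1, 3, 5 and 7, against 10.08, 9.82, 9.64 and 9.77 on parent arrays 2, 4, 6 and 8. The strains were far apart, and PCS60 fell by 0.95 ± 0.12 (SE, n = 4 and 4, limma adjusted p = 0.000168), or 1.93-fold. The difference was -1.0 within gain 600 (limma adjusted p = 0.00712) and -0.95 in the fit blocked on gain (limma adjusted p = 0.000581). It did not pass with median scaling (-1.12, limma adjusted p = 0.360), with 75th percentile scaling (-1.06, 0.117) or within gain 700 (-0.85, 0.393).

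Of the 7 calls, PEX13, PEX21 and PEX32 also passed with each array left out in turn, with gain as a block, with slide row as a block and with the close pairs of arrays averaged. The other 4 lost their calls when any 1 of several arrays was left out, while their differences kept their signs. PEX17 no longer passed without mutant 1, 3 or 5 or parent 2 or 4 (limma adjusted p = 0.0755 to 0.113, differences of 0.35 to 0.51), and PEX8 passed only without mutant 7, with an adjusted p of 0.0724 to 0.117 and a difference of 0.25 to 0.35 without any other array. PEX22 did not pass without mutant 1, 3 or 7 or parent 2, 4 or 6 (0.0842 to 0.123, differences of -0.43 to -0.35), and PEX29 did not pass without mutant 7 or any single parent array (0.058 to 0.112, differences of 0.60 to 0.72). Each slide row held 1 mutant and 1 parent array. Within the 4 rows, 9 members were higher in the mutant in every row (28.1%, against 26.3% of all genes) and 7 were lower in every row (21.9%, against 21.2%). All 7 called genes had their direction in all 4 rows, although the difference of PEX17 was 0.001 in row 4.

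**Figure D3:**
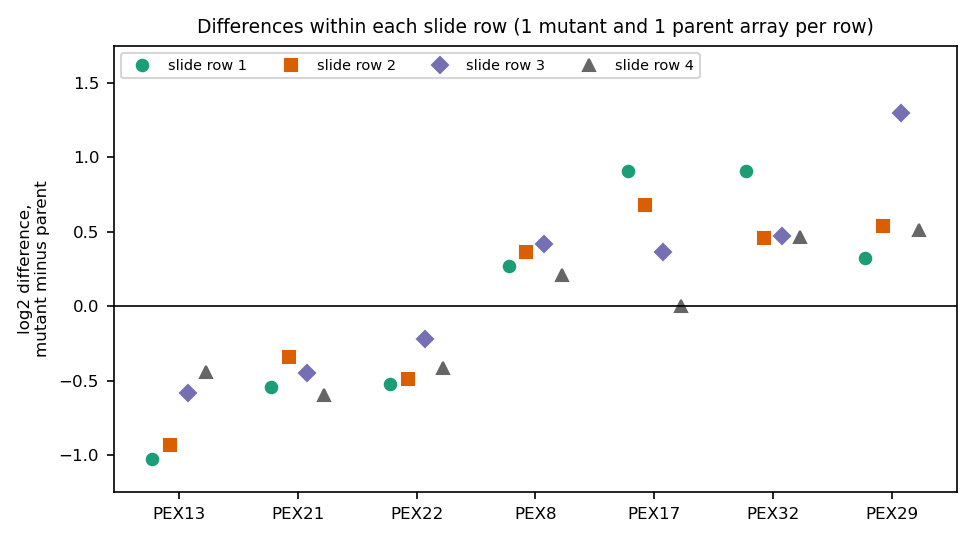
Log2 difference, mutant minus parent, within each of the 4 slide rows for the 7 called members, ordered by their overall difference; each row compares 1 mutant with 1 parent array. PEX21 runs from -0.60 to -0.34 and PEX32 from 0.46 to 0.91, while PEX17 runs from 0.001 to 0.91 and PEX29 from 0.33 to 1.30.

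Whether related members differed from each other was asked for 13 pairs, 8 of them pairs of related genes and 5 within docking and ubiquitination that were added after their values were seen. For each pair the log2 difference between the genes was taken within each array, where a shift common to the whole array cancels, and the strains were compared by a two-sided exact permutation test, whose smallest p for 4 against 4 arrays is 0.0286. The pull of the offset on dim genes does not cancel, and the pair results depend on normalization. None of the 13 passed after Benjamini-Hochberg adjustment (smallest adjusted p = 0.148), which required at least 8 pairs at the smallest p, so a pair that differed alone could not pass. An unadjusted p under 0.05 was found for 2 pairs. PEX13 minus PEX8 averaged -0.18 ± 0.42 in the mutant and 0.88 ± 0.38 in the parent (SD, n = 4 each, exact p = 0.0286, adjusted p = 0.148), and was lower on every mutant array than on any parent array. PEX13 minus PEX17 averaged 0.11 ± 0.48 in the mutant and 1.34 ± 0.55 in the parent (exact p = 0.0571), overlapping at mutant 7. Both of these pairs were added after their values were seen, and each joins a called fall with a called rise. Their separation therefore adds no support to those calls. The other pair with an unadjusted p under 0.05 was PEX32 minus PEX31, for which no difference is given because PEX31 was not above background on any mutant array. With median scaling its exact p was 0.486, while that of PEX13 minus PEX8 and of PEX13 minus PEX17 was 0.0286 (adjusted p = 0.186). PEX21 minus PEX18 differed by -0.49 between mutant and parent and overlapped (exact p = 0.143), so an unequal change of these co-receptors was not shown.

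Other genes linked to peroxisomes, not all of them for peroxisomal proteins, were read from 4 lists. Their counts stand beside 26.6% of all genes that passed (12.7% higher and 14.0% lower in the mutant). Of all genes above background on every array of at least 1 strain, 48.0% passed in a fit limited to them. Most of those genes entered that fit through the parent arrays. Each list is therefore also counted in the limited fit. No list was tested against these shares. Of 13 genes of beta-oxidation 3 rose, 2 fell and 8 did not pass (median 0.34). In the limited fit 4 of 7 passed, 3 higher and 1 lower in the mutant. FOX2, the multifunctional second enzyme of the cycle, was 1.68-fold higher (limma adjusted p = 0.00489), FAA1, an acyl-CoA synthetase, rose by 0.47 and IDP3, the peroxisomal isocitrate dehydrogenase, by 0.49. The FAA1 and IDP3 calls ended without parent 4 (limma adjusted p = 0.0745 and 0.0731). SPS19, a reductase needed for some unsaturated fatty acids, was 2.27-fold lower (limma adjusted p = 6.03e-05), and FAA4, another acyl-CoA synthetase, fell by 0.47 and lost its call without any 1 of 6 arrays (0.0714 to 0.0987). SPS19 and FAA4 were above background on 2 mutant arrays each. The SPS19 difference of -1.18 was -1.54 with an offset of 16. POX1 and POT1, the first and last enzymes of the cycle, differed by 0.14 and 0.48 and did not pass.

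Of 11 other matrix enzymes, 1 rose, 5 fell and 5 did not pass (median -0.21), and over all genes 26.6% passed. In the fit limited to genes above background on every array of at least 1 strain, 5 of 9 passed, all lower. In that fit 48.0% of all genes passed. MLS1, the malate synthase of the glyoxylate cycle, averaged 7.37 ± 0.13 in the mutant and 11.11 ± 0.23 in the parent (SD, n = 4 each), and was 13.4-fold lower (limma adjusted p = 1.02e-08). MLS1 was above background on 2 mutant and 4 parent arrays, so the size of its fold depends on the offset. Its log2 difference of -3.75 was -4.17 with an offset of 16. CIT2, the citrate synthase of that cycle, averaged 10.58 ± 0.12 in the mutant and 12.44 ± 0.40 in the parent, and was 3.62-fold lower (limma adjusted p = 2.93e-05). GPD1, a glycerol-3-phosphate dehydrogenase that enters peroxisomes in part, fell by 0.62, MDH3, the peroxisomal malate dehydrogenase, by 0.54, and LPX1, a lipase chosen here after its value was seen, by 0.47. LYS1, of lysine synthesis, rose by 0.46. The MDH3 call ended without mutant 7 or parent 4 or 6 (limma adjusted p = 0.0552 to 0.0712), that of LYS1 without mutant 1 or 3 or parent 2 or 4 (0.0502 to 0.0722), and that of LPX1 without mutant 1 or 3 or parent 2 or 8 (0.0704 to 0.0821). Within gain 600 the GPD1 difference was -0.40 and that of MDH3 -0.33. GPD1 and LYS1 were above background on 2 mutant arrays each.

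Of 13 genes of peroxisome division, inheritance and selective degradation, 2 rose, 3 fell and 8 did not pass (median -0.05). Over all genes 26.6% passed. In the fit limited to genes above background on every array of at least 1 strain, 4 of 4 passed, 2 higher and 2 lower. In that fit 48.0% of all genes passed. MDV1, an adaptor of the division machinery that mitochondria use too, rose by 0.63 (limma adjusted p = 0.00102), and the dynamin-like gene VPS1 rose by 0.77 (limma adjusted p = 0.0216). PEX34, which acts with the PEX11 family and was not among the members because the files list it by systematic name, fell by 0.53 (limma adjusted p = 0.00384). It was above background on 2 mutant and 3 parent arrays. ATG11, an adaptor of selective autophagy, fell by 0.63, and FIS1, the membrane anchor of the division machinery, by 0.48. VPS1 lost its call without mutant 1 or 7 (limma adjusted p = 0.0556 and 0.0616), ATG11 without parent 8 (0.0575) and FIS1 without mutant 3 or parent 4, 6 or 8 (0.0526 to 0.0937). With array weights the ATG11 difference was -0.40. None of 7 other regulators of oleate-responsive genes passed in limma, with none at an unadjusted p under 0.05 and differences of -0.31 to 0.33. In the limited fit none of 3 passed. With median scaling, which moved the median of all genes to 0.15, 1 gene of the beta-oxidation list and 1 of the matrix enzymes still passed (SPS19 and MLS1).

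**Figure D4:**
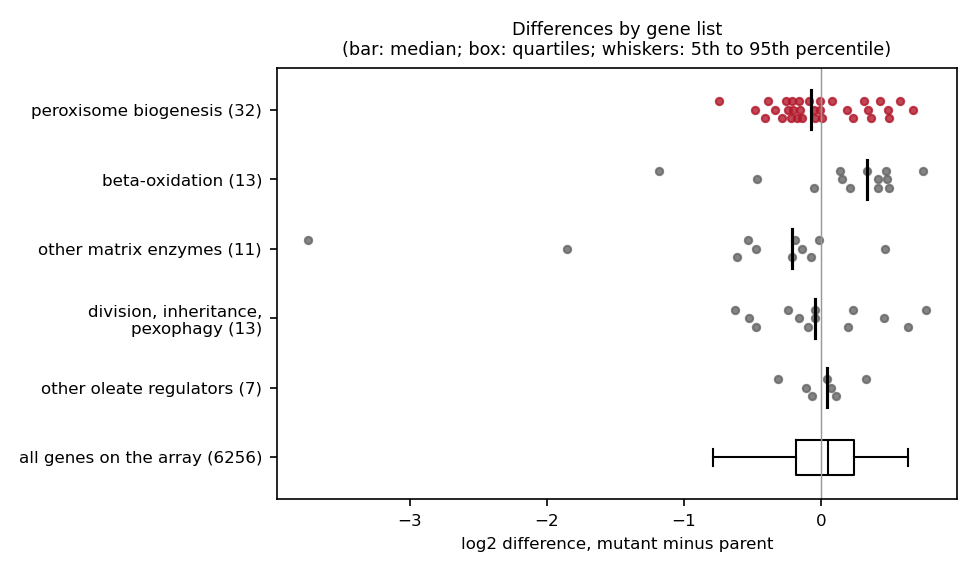
Log2 differences, mutant minus parent, of the 32 members (red dots) and of the genes of the 4 other lists (grey dots), with a black bar at each list's median; for all 6256 genes the box gives the quartiles, the line the median and the whiskers the 5th to 95th percentile. The members lie between -0.75 and 0.67 around a median of -0.07, and the points far to the left are CIT2 and MLS1.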

How the data were processed

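Total RNA of 8 samples was labelled with Cy5 and hybridised to 1 array each, per the labels' protocols. The deposited intensity values are spot brightnesses read at 635 nm with GenePix Pro 6.1.0.4 with no normalization, per the file headers. The deposited score used is GenePix's signal-to-noise ratio, and the deposited percent is the share of saturated pixels, which was 0 for every member spot. The sources used here name no genome build for the probes, so no coordinates are printed.

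The foreground median was corrected with normexp (offset 50), taken to log2, quantile-normalised, averaged over 2 spots and fitted with limma 3.58.1 in R 4.3.3 (lmFit and eBayes, mutant minus parent, no covariate), with Benjamini-Hochberg adjustment over 6256 genes and a threshold of 0.05. The code was tested on simulated data. The authors' value table holds linear, uncentred intensity values whose array medians ran from 75.1 to 79.4. Each of its columns ranked genes most like its own array's scanner file (Spearman 0.981 or more), its normalization method stays unknown, and it served as an alternative after log2(value + 50).

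Values on every array are given for called members and pairs of related genes; up to 4 called genes per direction are named from each other list, with POX1, FOX2 and POT1 whatever their p, and LPX1 is named outside this rule. Of the 32 members, 2 are in the counts but not reported singly here. The members and lists were chosen with earlier results of these data known. Alternatives covered background, spot summary, normalization, gain, slide row, array weights, dim probes, close arrays, moderation and left-out arrays. Precision is limited by the number of arrays.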

Additional observations from a re-analysis of the deposited data

Results flagged for a closer look

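In 7 of 106 sets of 4 arrays (1 gene in 1 strain), 1 array stood apart from the other 3 by Dixon's criterion, which chance alone meets in about 1 set in 20. PEX14 read 7.13 on parent 2, against 7.92 to 7.98 on the other parent arrays, and PEX15 read 8.08 on the same array, against 8.88 to 9.01. PEX28 read 6.94 on parent 8, against 6.27 to 6.28, and FAT1 read 6.77 there, against 6.23 to 6.31. Mutant 7 was low for PEX2, at 7.31 against 7.53 to 7.57 on the other mutant arrays, for SPS19, at 6.49 against 6.88 to 6.96, and for ATG11, at 7.55 against 8.14 to 8.24. Parent 8 and mutant 7 were the dimmest arrays of their strains, and the part of brightness in these values was not tested.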

How the results depend on the processing

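The 7 called members kept their sign in all 156 refits, passed in 90 and did not pass in 66; of the 25 others, 47 of 563 refits changed sign and 20 passed. The count of 7 members was 0 with median scaling, with 75th percentile scaling and among gain 700 arrays (3, 2 and 1 at an unadjusted p under 0.05 in limma), 4 with gain as a block, 13 with array weights and 3 with close pairs averaged. It was 1 of 12 members that cleared background on every array of a strain, 1 of 3 that did so on all 8, and 3 to 7 with 1 array left out. The count of 1667 among all genes (794 higher, 873 lower) was 37 with median scaling and 57 with 75th percentile scaling, in each case 0 higher, 45 among gain 700 arrays (1 higher, 44 lower), 3034 with array weights (1653 higher, 1381 lower), 738 of 1536 (310 higher, 428 lower) and 298 of 582 (200 higher, 98 lower) with those filters on dim probes, and 1205 to 1701 with 1 array left out. Median and 75th percentile scaling moved the median difference of all genes to 0.15 and 0.21. The beta-oxidation count of 5 was 1 with median scaling, 0 with 75th percentile scaling and among gain 700 arrays, 8 with slide row as a block, 10 with array weights, 2 above background on all 8 arrays and 2 to 7 with 1 array left out, lowest without parent 4. The count of 6 other matrix enzymes was 1 with either scaling and among gain 700 arrays and 3 above background on all 8 arrays. The division count of 5 was 0 with either scaling and among gain 700 arrays, 2 among gain 600 arrays, 3 above background on all 8 arrays, 3 with close pairs averaged and 3 to 5 with 1 array left out, lowest without parent 8. The other oleate regulators had 0, and 1 among gain 600 arrays, with array weights or without mutant 5 (0 to 1 with 1 array left out). Filters and subsets test fewer genes or arrays; otherwise the cause was not tested. PEX17 was 0.74 with 75th percentile scaling, PEX29 0.40 with array weights, FAA4 -0.73 with an offset of 16 and -0.71 without background correction, and IDP3 0.21 among gain 700 arrays. The labels give the strains no shared replicate numbers; with slide row, which holds 1 array of each strain, as a block, 8 members and 1786 genes passed.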

Other observations

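In the RefSeq R64 gene table the 7 called members have 14 adjacent genes, of which 5 passed in the same direction as the member, 1 in the opposite direction and 8 not at all. The 6 that passed are 42.9% of these neighbours, against 26.6% of all genes and 14 of the 50 neighbours of members that did not pass, and the difference was not tested. The 5 were PFK1 beside PEX21, MRPL25 beside PEX8, ACS1 beside PEX22, DIG2 beside PEX29 and SSE2 beside PEX32. The gene in the opposite direction was MMR1, beside PEX13. These 6 names were chosen after their values were seen.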
